A study of Mus musculus with 30 samples.

Results

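The 10 genes described here are Hspa5, Hsp90b1, Pdia4, Pdia6, Calr, Canx, Sdf2l1, Dnajb9, Herpud1 and Xbp1, taken by symbol from a time-course count table of 52630 genes and a passage table of 55487 genes. All 10 were found in both tables, and all 10 passed the filter on low counts in both, beside 16049 and 16054 genes tested in all. They encode chaperones, folding enzymes and quality-control proteins of the endoplasmic reticulum (ER), except for Xbp1, which encodes a transcription factor of the same pathway.

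Proteins that enter the ER are folded there with the help of chaperones, lectins that read attached glucose residues, and enzymes that form disulphide bonds. When unfolded protein builds up, the membrane sensors IRE1, PERK and ATF6 start the unfolded protein response (UPR), in which ATF6 and spliced XBP1 raise chaperone genes, and PERK acts through ATF4 on genes of amino acid supply and redox balance. Several of these chaperones carry the name glucose-regulated protein, since their synthesis rises in cells deprived of glucose, when protein glycosylation fails for want of sugar.

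The cells were E14tg2a mouse embryonic stem cells (ESCs), 1 established line, so no result covers other lines. In the time course, 3 libraries each came from Serum/LIF (the control, labelled 0 h) and from enhanced metabolic medium (EMM) after 3, 9 and 24 h. EMM is Serum/LIF medium in which D-galactose takes the place of D-glucose and pyruvate, so the loss of glucose, the loss of pyruvate and the gain of galactose cannot be told apart. LIF, the cytokine that keeps ESCs undifferentiated, was in every medium. In the passage experiment, 3 libraries each came from cells kept for 10 passages (P10) or 20 passages (P20) in Serum/LIF, EMM or 2i/LIF, a culture medium with LIF and inhibitors of the kinases MEK and GSK3. The control is labelled 0 h, while the treatment notes speak of Serum/LIF medium for 24 h, so whether it matched the 24 h libraries in time since a medium change is not settled. With no control labelled 3, 9 or 24 h, time in fresh medium and EMM cannot be told apart. Values are normalized counts, that is, counts divided by the effective size of the library and set to the mean size of its experiment. They can be compared between groups of 1 experiment only.

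Libraries held 24074132 to 35301962 counts in the time course and 6944904 to 27912928 in the passage experiment. P20 2i/LIF replicate 1 and P10 EMM replicate 3 were the smallest libraries, with 6944904 and 7329835 counts. In both, the gene CT010467.1 took the most counts, 3.95% and 1.54%, where Eef1a1 led in the other 16 passage libraries. The ESC markers Pou5f1, Sox2, Nanog, Zfp42, Esrrb and Dppa5a together reached 135309 normalized counts or more in every time-course library and 58317 or more in every passage library. Single markers still moved: 1 of the 6 was higher and 3 were lower at both 3 h (16.3% and 18.2% of all tested genes) and 9 h of EMM (18.5% and 19.7%). At 24 h, 1 was higher and 2 were lower (21.8% and 22.2%). In EMM against Serum/LIF, 3 were higher and none lower at P10 (18.7% each way), and none higher and 2 lower at P20 (13.6% and 12.5%). Their sums were 77382 to 108939 in P10 EMM and 63294 to 68699 in P10 Serum/LIF. At P20 they were 58317 to 59932 in EMM and 66933 to 73720 in Serum/LIF. P20 2i/LIF replicate 1 also stood apart from its partners in chi-square per degree of freedom over genes (57.6 and 49.6, against 14.7 between the other 2), and so did P10 2i/LIF replicate 1 (20.4 and 30.1, against 6.52), which had 1.47% mitochondrial counts against 3.35% and 3.39%. The mitochondrial share was 1.04% in P20 2i/LIF replicate 1 against 2.28% and 2.75% in its partners, and it was 0.986% to 1.23% in P10 and 2.16% to 2.24% in P20 Serum/LIF. Its part in the passage results was not tested. In the time course, EMM 9 h replicate 3 (10.6 and 11.5, against 2.50) and EMM 24 h replicate 1 (14.1 and 12.5, against 2.89) stood apart in the same way. The 3 Serum/LIF libraries, the shared control of the time course, all differed from each other, with pairs at 11.2, 12.3 and 10.1. Pairs of EMM 3 h libraries stood at 2.53, 2.09 and 2.69. RNA came from whole cultures, so fewer cells of a type and less RNA per cell cannot be told apart.

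The promoter windows of these genes were searched for elements of the UPR, and 1 set of sites is printed because 5 of the 10 genes share it. The ER stress response element (ERSE) has the letters CCAAT and CCACG with any 9 bases between them, and is known as the joint site of the CCAAT factor NF-Y and of ATF6 or XBP1. It was searched on both strands of the RefSeq windows of GRCm38.p6, from 250 bases before to 50 bases after each start site. It was found in Hspa5, Hsp90b1, Calr, Canx and Pdia6, and in 37 of 27025 genes with a window (0.137%). Since the element was defined on promoters of this class of gene, its presence there is a description and no test was made. Capitals mark the fixed letters of the element, read 5′ to 3′ on the strand that holds it.
Hspa5: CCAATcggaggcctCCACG
Hsp90b1 (first site): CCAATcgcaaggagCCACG
Hsp90b1 (second site): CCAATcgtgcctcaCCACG
Calr: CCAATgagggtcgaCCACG
Canx: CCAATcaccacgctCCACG
Pdia6: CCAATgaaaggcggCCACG
The Hspa5 site lies at chr2:34772025-34772043 on the plus strand, in an exon of the GENCODE M21 annotation of Hspa5, whose gene start lies upstream of the RefSeq start. The Hsp90b1 sites lie at chr10:86705638-86705656 on the minus strand and chr10:86705533-86705551 on the plus strand. The Calr site lies at chr8:84847075-84847093 on the plus strand, opposite to the gene. The Canx site lies at chr11:50325800-50325818 on the minus strand and the Pdia6 site at chr12:17266491-17266509 on the plus strand. These 5 sites outside Hspa5 fell outside annotated genes.

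The windows of the other 5 genes held no ERSE. Herpud1 held the related element ERSE-II, with the letters ATTGG and CCACG around any 1 base, and an amino acid response element (CARE, TGATGNAA, with any base at N), the kind of site bound by ATF4 and its partners. Both are printed because they set Herpud1 apart from the other 9 genes.
Herpud1 (ERSE-II): ATTGGgCCACG
Herpud1 (CARE): TGATGcAA
The first lies at chr8:94386377-94386387 on the plus strand and the second at chr8:94386317-94386324 on the minus strand, both in an intron of the antisense gene Gm15890. Of all 32851 windows, 12 held an ERSE-II (0.037%) and 1304 a CARE (3.969%). The UPR element with the letters TGACGTGG was in 222 windows (0.676%) and in none of the 10 genes. A window without these letters says nothing of whether a factor acts on the gene.

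At 3 h of EMM, 6 of the 10 genes were higher than in Serum/LIF and none was lower, where 16.3% of all tested genes were higher and 18.2% lower. The 6 were Hspa5, Calr, Pdia4, Hsp90b1, Canx and Pdia6, which include all 5 genes with an ERSE. At 9 h the 6 genes were again higher (background 18.5%) and Xbp1 was lower (background 19.7%). At 24 h only Calr was higher (background 21.8%), and Herpud1, Xbp1, Pdia6, Dnajb9 and Hsp90b1 were lower (background 22.2%). A gene was called when its adjusted p was under 0.01 in edgeR's quasi-likelihood test over all tested genes. None of the 10 also passed a log2 fold change of 1 in size at any of the 3 times, which 4.22%, 5.55% and 8.18% of tested genes did. The median log2 fold change of the 10 genes was 0.22 at 3 h, 0.24 at 9 h and -0.16 at 24 h, against -0.013, -0.0046 and 8.9e-05 over all tested genes. Without EMM 9 h replicate 3, a library that stood apart, 7 genes were called higher at 9 h and none lower. Without EMM 24 h replicate 1, the other such library, 1 was called higher and 5 lower at 24 h. All 3 comparisons share the same Serum/LIF libraries.

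The 10 genes added together gave 94938 ± 151 normalized counts in Serum/LIF, 125149 ± 1768 at 3 h, 126350 ± 333 at 9 h and 92425 ± 972 at 24 h (mean ± SD, n = 3). The 24 h libraries ran from 91483 to 93425, all below the lowest Serum/LIF library at 94780. As a level per kilobase of exon in Serum/LIF, Calr stood first at 6428, followed by Hsp90b1 at 4801, Canx at 4599, Hspa5 at 3802, Pdia6 at 2676 and Pdia4 at 2312. The other 4 were far lower, from Sdf2l1 at 704 through Xbp1 at 533 and Herpud1 at 309 to Dnajb9 at 237. Of these neighbours, Hsp90b1 and Canx overlapped between libraries and the others did not. Lengths are those of all annotated exons, so this order is approximate.

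Hspa5 (ENSMUSG00000026864, chr2:34771970-34777547) encodes BiP, the ER member of the Hsp70 family, which holds unfolded chains and keeps the UPR sensors inactive. It stood at 16306, 16667 and 15268 normalized counts in Serum/LIF, 27391, 26850 and 26466 at 3 h, 23993, 24044 and 22111 at 9 h, and 16760, 15297 and 15284 at 24 h. Every library at 3 and 9 h lay above every Serum/LIF library, and the 24 h libraries overlapped those of Serum/LIF. The log2 fold change was 0.74 ± 0.047 (SE of the fit) at 3 h (1.67-fold, adjusted p = 1.1e-08) and 0.54 ± 0.047 at 9 h (adjusted p = 2.5e-07). At 24 h it was -0.03 ± 0.047 (adjusted p = 0.65), with an interval from -0.12 to 0.06. From 3 to 9 h it had already fallen by 0.20 (adjusted p = 0.0030), a call that was lost without EMM 3 h replicate 1, EMM 3 h replicate 2 or EMM 9 h replicate 3 and with library totals alone (adjusted p from 0.011 to 0.016).

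Hsp90b1 (ENSMUSG00000020048, chr10:86690209-86705509) encodes GRP94, the Hsp90 of the ER, which folds integrins and other secreted and surface proteins. Serum/LIF libraries held 18846, 19125 and 20106 normalized counts, those at 3 h 23692, 22768 and 22601, those at 9 h 22976, 23319 and 24135, and those at 24 h 16570, 17291 and 16669. It was thus above all controls early and below all of them at 24 h. The log2 fold changes were 0.25 ± 0.037 at 3 h (adjusted p = 5.4e-05), 0.28 ± 0.037 at 9 h and -0.20 ± 0.037 at 24 h (adjusted p = 0.00027). The pseudogene 1810014B01Rik overlaps Hsp90b1 on the opposite strand, with a mean of 107.4 counts a library.

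Calr and Canx encode calreticulin and calnexin, the soluble and the membrane-bound lectin chaperones that bind glycoproteins with a single glucose left on their sugar chain. Calr (ENSMUSG00000003814, chr8:84841850-84846934) held 18574, 18491 and 18476 normalized counts in Serum/LIF, 27985, 27780 and 27277 at 3 h, 32559, 31623 and 32884 at 9 h, and 21298, 22260 and 21917 at 24 h. It was the only gene of the 10 that was higher at all 3 times, with no overlap of the controls at any. Its log2 fold change rose from 0.58 ± 0.031 at 3 h (adjusted p = 2.3e-09) to 0.81 ± 0.031 at 9 h (1.75-fold, adjusted p = 7.3e-11), and the step from 3 to 9 h passed the test by itself (0.23, adjusted p = 4.9e-05). At 24 h it was 0.24 ± 0.031 (adjusted p = 1.3e-05).

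Canx (ENSMUSG00000020368, chr11:50293961-50325673) held 21660, 21061 and 22021 normalized counts in Serum/LIF, 25863, 25137 and 25475 at 3 h, 24863, 25287 and 26047 at 9 h and 21224, 22307 and 21735 at 24 h. The 3 and 9 h libraries lay above all controls and the 24 h libraries overlapped them. Its log2 fold change was 0.24 ± 0.034 at both 3 h (adjusted p = 3.4e-05) and 9 h (adjusted p = 3.6e-05), and 0.01 ± 0.034 at 24 h (adjusted p = 0.79).

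Pdia4 and Pdia6 encode protein disulphide isomerases, which form and reshuffle disulphide bonds and, for PDIA6, act on the UPR sensor IRE1. Pdia4 (ENSMUSG00000025823, chr6:47796141-47813430) held 5369, 5634 and 5637 normalized counts in Serum/LIF, 6753, 7013 and 6711 at 3 h, 6843, 6861 and 6972 at 9 h, and 5106, 5255 and 5035 at 24 h. It rose by 0.30 ± 0.035 at 3 h (adjusted p = 5.4e-06) and 0.31 ± 0.035 at 9 h on the log2 scale. At 24 h every library lay below every control, with a log2 fold change of -0.11 ± 0.035 that missed the threshold (adjusted p = 0.013) and passed it with library totals (adjusted p = 0.0062) and with at least 10 counts in every library (adjusted p = 0.0082). Pdia6 (ENSMUSG00000020571, chr12:17266545-17284770) held 9982, 10221 and 9860 in Serum/LIF, 11552, 11666 and 11344 at 3 h, 10983, 11419 and 11065 at 9 h, and 8338, 8038 and 7960 at 24 h. It was the least raised of the 6 genes (log2 fold change 0.20 ± 0.033 at 3 h and 0.15 ± 0.033 at 9 h) and was below all controls at 24 h (-0.30 ± 0.034, adjusted p = 2.0e-06).

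Sdf2l1 and Dnajb9 encode partners of BiP in the ER. Sdf2l1 (ENSMUSG00000022769, chr16:17130138-17132383), part of a chaperone complex, held 899, 791 and 651 normalized counts in Serum/LIF and between 707 and 1024 in the 9 EMM libraries. Its groups overlapped at each time and it was not called in the time course. It was also the member with the widest spread, with an SE of 0.12 for each log2 fold change. Without EMM 9 h replicate 3, at 740 against 1024 and 1008 in the other 9 h libraries, its rise at 9 h passed the test (log2 fold change 0.40, adjusted p = 0.0047, against 0.25 and 0.10 with all libraries). It also passed with a block by the replicate numbers of the sample descriptions (0.43, adjusted p = 0.0037) and with no filter (0.28, adjusted p = 0.00041).

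Dnajb9 (ENSMUSG00000014905, chr12:44205559-44210326) encodes ERdj4, a J-domain protein that brings BiP to IRE1 and to chains bound for degradation. It held 596, 632 and 588 normalized counts in Serum/LIF, 592, 600.4 and 581 at 3 h, 559, 627 and 609 at 9 h, and 504, 531 and 485 at 24 h. Only at 24 h did all 3 libraries lie below every control (log2 fold change -0.26 ± 0.060, adjusted p = 0.0020). That call was lost without EMM 24 h replicate 3 (adjusted p = 0.015) or Serum/LIF replicate 2 (adjusted p = 0.019), and with no filter (adjusted p = 0.012).

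Herpud1 and Xbp1 were not called higher at any time. Herpud1 (ENSMUSG00000031770, chr8:94386438-94395377) encodes a membrane protein that gathers the machinery of ER-associated degradation. It held 727, 712 and 725 normalized counts in Serum/LIF, 725, 664 and 745 at 3 h, 634, 651 and 650 at 9 h, and 400, 402 and 394 at 24 h. Its log2 fold change at 24 h, -0.85 ± 0.055 (adjusted p = 7.2e-09), was the largest in size of any of the 10 genes over Serum/LIF in the time course. At 9 h all libraries lay below the controls, without passing the threshold (-0.16 ± 0.053, adjusted p = 0.019), which it passed with library totals (adjusted p = 0.0074).

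Xbp1 (ENSMUSG00000020484, chr11:5520659-5525893) encodes the UPR transcription factor that is made once IRE1 splices its mRNA, a step that gene counts do not show. It held 1821, 1746 and 1624 normalized counts in Serum/LIF, 1677, 1633 and 1560 at 3 h, 1566, 1554 and 1446 at 9 h, and 1388, 1338 and 1288 at 24 h. Only the 3 h libraries overlapped the controls. Its log2 fold changes were -0.09 ± 0.052 at 3 h (adjusted p = 0.16), -0.18 ± 0.052 at 9 h (adjusted p = 0.0082) and -0.37 ± 0.053 at 24 h (adjusted p = 2.6e-05). The 9 h call was lost in 9 of 14 alternatives, among them leaving out Serum/LIF replicate 1, Serum/LIF replicate 2, or any EMM 9 h replicate (adjusted p from 0.015 to 0.060).

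**Figure D1:**
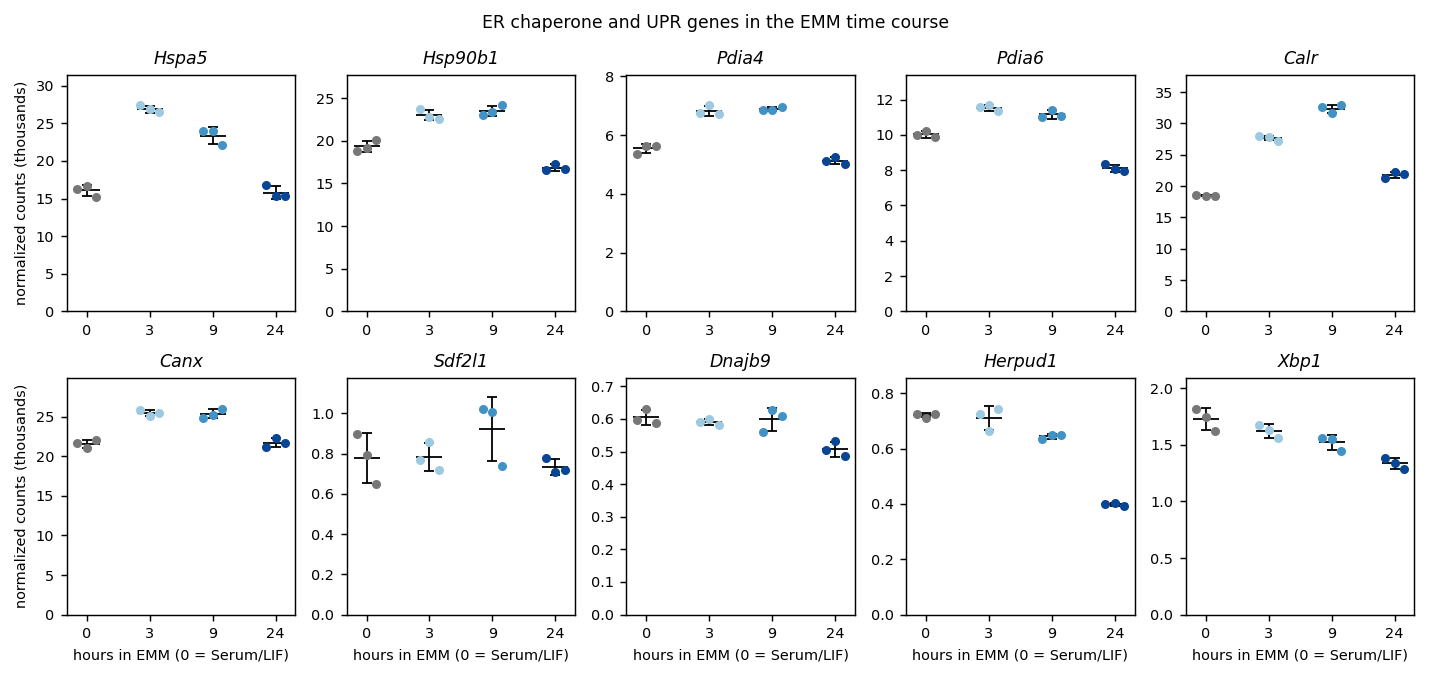
Normalized counts, on an axis in units of 1000 (vertical axis), of each of the 10 genes against hours in EMM, with Serum/LIF at 0. Points are the 3 libraries of a group and bars the mean ± SD; Hspa5, Calr, Pdia4, Hsp90b1, Canx and Pdia6 stand above Serum/LIF at 3 and 9 h, and Herpud1 stands at 394 to 402 at 24 h.

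The fall between 9 and 24 h was shared widely. Of the 10 genes, 8 were lower at 24 h than at 9 h and none was higher, where 6.02% of all tested genes were lower. The median log2 fold change of all 10 was -0.44, against 0.0025 over all tested genes. The 8 called falls ranged from Herpud1 (fell by 0.69), Calr (fell by 0.57) and Hspa5 (fell by 0.57) to Canx (fell by 0.22). The test did not call Sdf2l1 (-0.33, adjusted p = 0.058) or Xbp1 (-0.19, adjusted p = 0.018). With replicate number as a block in the fit, 9 of the 10 genes were called. The call of Dnajb9 (-0.24, adjusted p = 0.0091) was lost without EMM 24 h replicate 1 or 3 or EMM 9 h replicate 2 or 3 (adjusted p from 0.023 to 0.046). Library totals, no filter and the DESeq2 Wald test also lost it (adjusted p from 0.011 to 0.019). So did a block by the description numbers (adjusted p = 0.015) and a fit of only the groups compared (adjusted p = 0.034). Between 3 and 9 h, only Calr (higher) and Hspa5 (lower) changed, 1 of 10 each way, against 13.7% of tested genes higher and 12.9% lower. That count fell to 1 without EMM 3 h replicate 1 or 2, and without EMM 9 h replicate 3 it was 2, both higher.

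**Figure D2:**
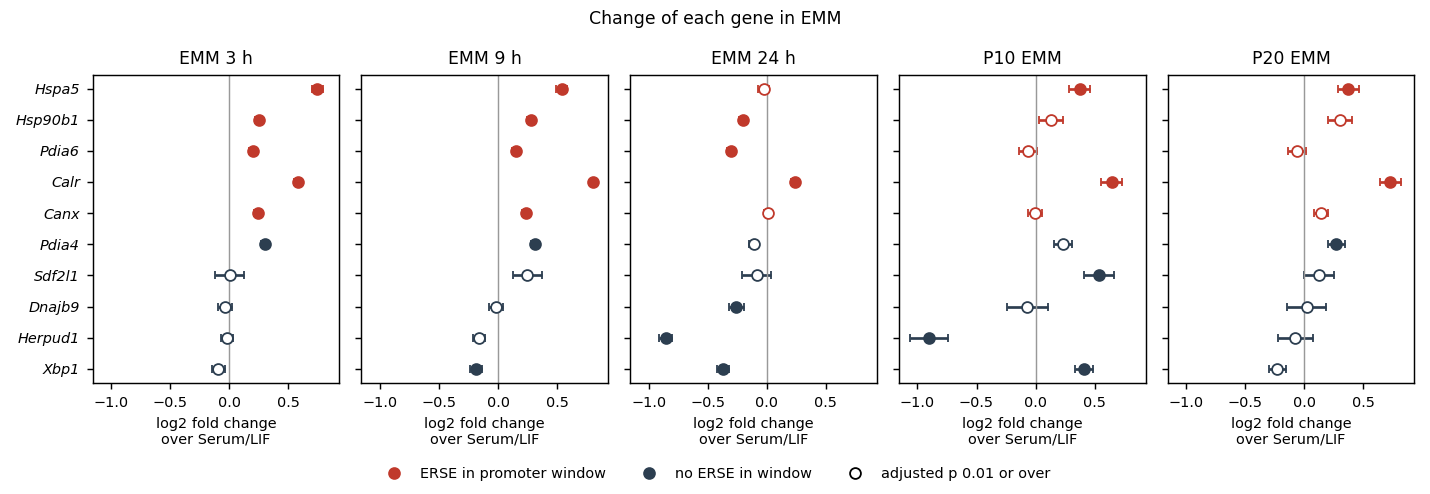
Log2 fold change over Serum/LIF (horizontal axis, point ± SE) of each gene at 3, 9 and 24 h of EMM and after 10 and 20 passages in EMM. Red points have an ERSE in the promoter window, dark points have none, and open points were not called; all 5 red points are filled and above 0 at 3 and 9 h.

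Another 32 genes have the element in their window, of which 13 were tested in the time course. At 3 h, 4 of these were higher and 2 lower, and at 9 h 5 were higher and 2 lower. Their median log2 fold changes were 0.094 and 0.12, against 0.25 and 0.28 in the 5 chaperone genes with the element. Of all tested genes, 16.3% and 18.5% were higher and 18.2% and 19.7% lower at these times, and no test of the 13 genes was made.

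The rest of the ER folding machinery was read from a list of 16 other factors, among them Hyou1, Pdia3, P4hb and Dnajc3. Of these, 7 were higher and none lower at 3 h, 11 were higher and 1 lower at 9 h, and 4 were higher and 4 lower at 24 h, where 21.8% and 22.2% of all tested genes were. At 3 and 9 h, 16.3% and 18.5% of all tested genes were higher and 18.2% and 19.7% lower. Their median log2 fold changes were 0.14, 0.26 and 0.092. Erp44, which returns escaped enzymes from the Golgi to the ER, had the largest called rise of the list at 24 h (0.30 ± 0.045, adjusted p = 4.1e-05). Txndc5, a disulphide isomerase, had the largest called fall (-0.49 ± 0.048, adjusted p = 5.7e-07). Creld2, a disulphide-linked chaperone partner with an ERSE of its own, rose by 0.51 at 3 h and 0.45 at 9 h and at 24 h stood at 1856 normalized counts, against 1751 in Serum/LIF.

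Genes of ER-associated degradation, which moves misfolded chains to the proteasome, were higher in 6 of 12 at 3 h, 8 at 9 h and 7 at 24 h, against 16.3%, 18.5% and 21.8% of all tested genes, and 1 was lower, at 24 h (22.2%). Sel1l, the scaffold of the HRD1 ligase, rose at all 3 times, with log2 fold changes of 0.63, 0.62 and 0.48 (adjusted p = 1.6e-07 at 24 h). Derl3, a channel subunit, was the 1 that fell at 24 h (-0.35, adjusted p = 0.0043), from 235.2 to 184 normalized counts. That call was lost without EMM 24 h replicate 3 or Serum/LIF replicate 1 or 3 (adjusted p from 0.021 to 0.031). Herpud1, which works with these proteins, was 0.85 below its control in log2 fold change at the time when Sel1l was still raised.

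Of the 6 sensors and their proteases, 2 were higher and 1 lower at 3 h (16.3% and 18.2% of all tested genes), and 2 were higher and none lower at 9 h (18.5%) and at 24 h (21.8%). Ern1, which encodes IRE1, was lower at 3 h (log2 fold change -0.26, adjusted p = 0.0062) and higher at 24 h (0.24, adjusted p = 0.0071), and both calls were fragile. The first was lost without Serum/LIF replicate 1 or 3 or EMM 3 h replicate 2 or 3, and the second without Serum/LIF replicate 1 or 2 or EMM 24 h replicate 2 or 3 (adjusted p from 0.016 to 0.039). Eif2ak3, which encodes PERK, was higher at 3 h (0.22, adjusted p = 0.0017) and 9 h (0.24). Atf6 stood at 1521 normalized counts in Serum/LIF and 1397, 1465 and 1484 in EMM, with no call.

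In the PERK-ATF4-CHOP arm, none of the 8 genes was called higher at any time, 5 were lower at 3 h (18.2% of all tested genes) and at 9 h (19.7%), and 6 at 24 h (22.2%). Its difference from the 10 genes was not tested. The median log2 fold change was -0.21, -0.41 and -0.48. Atf4, its transcription factor, fell by 0.17, 0.15 and 0.41 on the log2 scale (adjusted p = 2.9e-07 at 24 h). The call at 3 h was lost without EMM 3 h replicate 2 (adjusted p = 0.013), and that at 9 h without any Serum/LIF replicate or EMM 9 h replicate 1 or 3 (adjusted p from 0.010 to 0.045). Chac1, a glutathione-degrading target of ATF4, fell from 983 normalized counts in Serum/LIF to 513, 352 and 176, a log2 fold change of -2.48 ± 0.086 at 24 h (adjusted p = 8.6e-12). Ddit3, which encodes CHOP, stood at 303.5, 299, 379.5 and 286.5 with no call. In this arm, 4 of 8 genes had a CARE in the window, as had Herpud1 alone of the 10 genes described here.

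Of 12 chaperones of the cytosol and the mitochondria, 3 were higher and 2 lower at 3 h (16.3% and 18.2% of all tested genes), none was higher and 6 were lower at 9 h (19.7%), and none was higher and 7 were lower at 24 h (22.2%). Hspa8, the constitutive Hsp70 of the cytosol, rose by 0.16 at 3 h and fell by 0.22 at 9 h. Hspa1b, an inducible Hsp70, had the largest called fall at 24 h (-0.51, adjusted p = 0.00058), which is uncertain because Hspa1a is a near-identical copy. The lists share the libraries and the controls of the 10 genes.

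**Figure D3:**
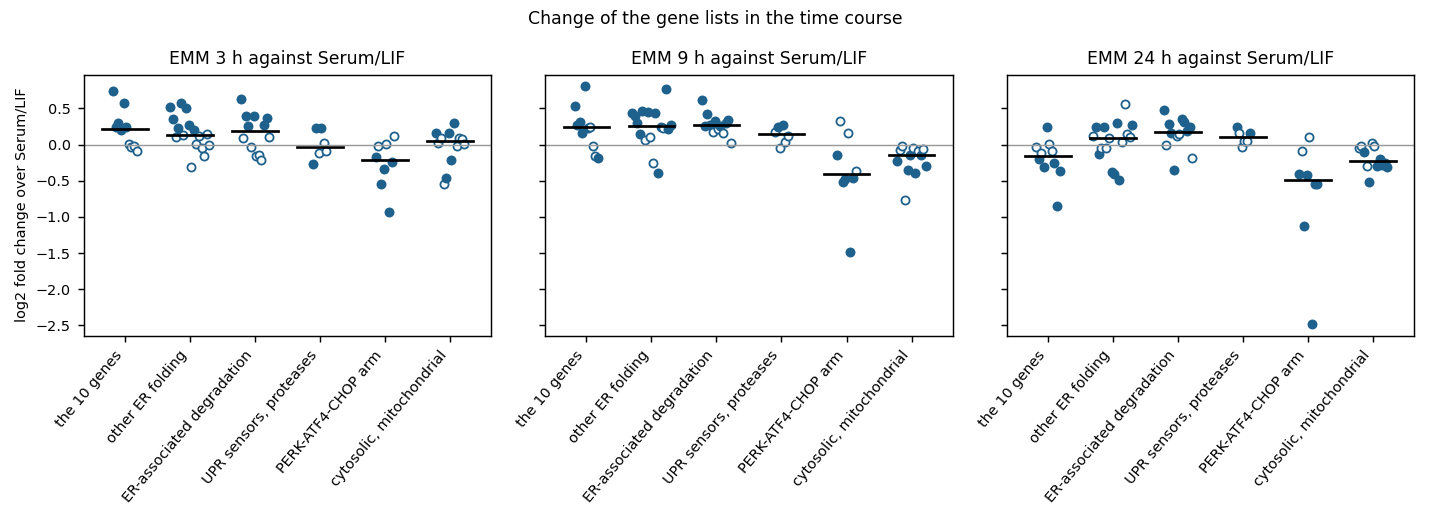
Log2 fold change over Serum/LIF (vertical axis) of the 10 genes and of 5 other pathway lists at 3, 9 and 24 h of EMM. Each point is a gene, filled where called, and the bar is the median of the list; the PERK-ATF4-CHOP arm has its median at -0.21, -0.41 and -0.48, with Chac1 lowest at -2.48.

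Markers of other cell types were also measured, and their part in these results was not tested. In the time course, the summed level of 11 primitive endoderm markers was 13312 to 13836 normalized counts in Serum/LIF, 17344 to 18049 at 3 h, 15030 to 16279 at 9 h and 15003 to 16612 at 24 h. At these times 5, 7 and 7 of them were called higher (16.3%, 18.5% and 21.8% of all tested genes), and 1 was lower at 9 h and at 24 h. The 6 trophectoderm markers summed to 2491 to 2731 in Serum/LIF and to 3667 to 4481 in the EMM libraries. In every group, Serum/LIF included, 1 of them had no more than 3 counts in any library, and Elf5 was at 0 at 24 h. Among the 5 tested, 2, 3 and 3 were called higher at the 3 times and 1 was lower, at 24 h (22.2% of all tested genes). The 5 fibroblast markers summed to 1799 to 1888 in Serum/LIF and 1251 to 1473 at 24 h.

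In the passage experiment, the summed trophectoderm and fibroblast markers were highest in Serum/LIF, although 1 trophectoderm marker was called higher in P10 2i/LIF and 1 fibroblast marker in P10 EMM. Trophectoderm markers summed to 5328 to 6622 normalized counts in P10 Serum/LIF, 466 to 596 in P10 EMM and 837 to 1116 in P10 2i/LIF, and to 2916 to 3879, 515 to 552 and 1805 to 1819 at P20. Fibroblast markers summed to 2225 to 2658 in P10 Serum/LIF and 3572 to 7104 in P20 Serum/LIF, but to 142 to 364 in EMM and 45.0 to 90.9 in 2i/LIF at either passage. Primitive endoderm markers summed to 9623 to 10599 in P10 Serum/LIF, 10881 to 12496 in P10 EMM and 6765 to 7704 in P10 2i/LIF. At P20 the same sums were 7381 to 9933 in Serum/LIF, 6254 to 7367 in EMM and 8171 to 9051 in 2i/LIF. Counts of single markers differ from these sums. Of the 10 tested, 7 at P10 and 6 at P20 were lower in 2i/LIF than in Serum/LIF and 2 were higher at each, with median log2 fold changes of -1.90 and -1.94. Over all tested genes, 25.6% and 23.2% were lower and 26.4% and 21.0% higher. Between EMM and 2i/LIF at P20, EMM had the higher level for 8 of the 10 and the lower for 2 (median log2 fold change 2.35), against 25.7% and 22.9% of all tested genes. Postn, a fibroblast marker, was at 0 in EMM at both passages. Their part in the values of the 10 genes was again not tested.

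After 10 passages in EMM, 4 of the 10 genes were higher than in Serum/LIF and 1 was lower, where 18.7% of tested genes were higher and 18.7% lower. After 20 passages 3 were higher and none was lower, where 13.6% and 12.5% of tested genes were. Calr and Hspa5 were higher at both. The median log2 fold change of the 10 genes was 0.18 at P10 and 0.13 at P20, against 0.012 and -0.00036 over all tested genes. The count at P10 was 3 without P10 EMM replicate 3, the shallow library. At P20 it was 1 when P20 EMM replicate 2, P20 EMM replicate 3, P20 Serum/LIF replicate 1 or P20 Serum/LIF replicate 2 was left out.

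Calr, the gene for the soluble lectin chaperone, held 7997, 7332 and 7625 normalized counts in P10 Serum/LIF and 11722, 11457 and 12739 in P10 EMM, and 7260, 6673 and 7219 against 12178, 11566 and 11308 at P20. The groups did not overlap at either passage. Its log2 fold changes were 0.65 ± 0.090 at P10 (adjusted p = 1.0e-05) and 0.73 ± 0.090 at P20 (adjusted p = 5.7e-06), and the call stood in all 14 alternatives at each passage. Scaled within chromosomes, Calr stood at 0.60 at P10 and 0.58 at P20. The median of all tested genes on its chromosome 8 was 0.055 and 0.13. Of the 10 genes, Calr alone was called higher in each of the 5 comparisons of EMM with Serum/LIF.

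Hspa5 held 9465, 9407 and 9283 normalized counts in P10 Serum/LIF and 11282, 11965 and 13238 in P10 EMM. At P20 it held 6793, 6569 and 7282 in Serum/LIF and 8500, 9274 and 8910 in EMM. EMM libraries were above all controls at both passages. The log2 fold change was 0.37 ± 0.089 at each (adjusted p = 0.0019 and 0.0029). These calls were close to the threshold. That at P10 was lost without P10 EMM replicate 3, with library totals and with at least 10 counts in every library (adjusted p from 0.012 to 0.014). That at P20 was lost without P20 EMM replicate 2 or 3 or P20 Serum/LIF replicate 1 or 2 (adjusted p from 0.011 to 0.017). Library totals also lost the P20 call (adjusted p = 0.015).

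Hsp90b1 and Canx, both raised at 3 h, were not called after passages in EMM. Hsp90b1 held 15930, 15250 and 14936 normalized counts in P10 Serum/LIF and 15366, 16623 and 18404 in P10 EMM, which overlap. At P20 it held 11794, 11854 and 11944 in Serum/LIF and 14257, 15007 and 14652 in EMM. These did not overlap, and the log2 fold change of 0.30 ± 0.10 missed the threshold (adjusted p = 0.023). Canx had means of 12296 and 12244 in P10 Serum/LIF and EMM and 10613 and 11721 at P20 (log2 fold change 0.14 ± 0.061, adjusted p = 0.070). Scaled within chromosomes, Canx was called at P20 (0.26, adjusted p = 0.0025). Hsp90b1 was called at P20 with no filter (adjusted p = 0.0066) and with only the groups compared (adjusted p = 0.00023).

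Pdia4 held 2581, 2326 and 2479 normalized counts in P10 Serum/LIF and 2827, 2820 and 3026 in P10 EMM, and 2185, 2228 and 2364 against 2729, 2825 and 2612 at P20. EMM was above the controls in every library, and the P10 difference was called only when scaled within chromosomes (0.27, adjusted p = 0.0060). The P20 difference was called (log2 fold change 0.27 ± 0.073, adjusted p = 0.0073), and it was lost in 11 of 14 alternatives, including the omission of any single P20 EMM or Serum/LIF library. Pdia6 had overlapping groups at both passages, with means of 5091 and 4871 at P10 and 4321 and 4139 at P20.

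Of the 3 genes Sdf2l1, Herpud1 and Dnajb9, the difference between the EMM effects at P20 and P10 was called for none. Sdf2l1 held 391, 354 and 326 normalized counts in P10 Serum/LIF and 484, 466 and 616 in P10 EMM (log2 fold change 0.54 ± 0.13, adjusted p = 0.0023), and its groups overlapped at P20. The P10 call was lost without P10 EMM replicate 3 or P10 Serum/LIF replicate 3 (adjusted p = 0.014 and 0.013). Herpud1 held 283, 226 and 272 in P10 Serum/LIF and 136, 120 and 167 in P10 EMM (-0.90 ± 0.16, adjusted p = 0.00016). At P20 its groups overlapped, at 226, 270 and 317 against 260, 271 and 238. Dnajb9 had overlapping groups at both passages, between 204 and 317.

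For Xbp1 the EMM effect differed between the passages. It held 692, 705 and 696 normalized counts in P10 Serum/LIF and 952, 916 and 914 in P10 EMM (log2 fold change 0.41 ± 0.077, adjusted p = 0.00023). At P20 it held 1122, 1046 and 1266 in Serum/LIF and 982, 989 and 957 in EMM (-0.23 ± 0.074, adjusted p = 0.021), a difference that was not called. At P20, library totals, the filter of at least 10 counts and the DESeq2 Wald test called it lower (adjusted p from 0.0041 to 0.0057), and scaling within chromosomes gave -0.11 (adjusted p = 0.24). The P10 call was lost with no filter (adjusted p = 0.013). Its EMM means were 928 and 976, and its Serum/LIF means 698 and 1145. The difference between the EMM effects at P20 and P10 was -0.64 ± 0.11 (adjusted p = 0.00025), and Xbp1 was the only 1 of the 10 genes for which it was called lower, where 6.43% of tested genes were and where 5 of the 6 ESC markers were (median -0.72), and none of the 10 was called higher (8.28%). That difference passed the test in all 20 alternatives, although the count of genes called was 2 without P10 EMM replicate 3, P10 Serum/LIF replicate 2 or P20 Serum/LIF replicate 3. For Herpud1 the difference was 0.82 ± 0.22 (adjusted p = 0.010), just outside the threshold.

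**Figure D4:**
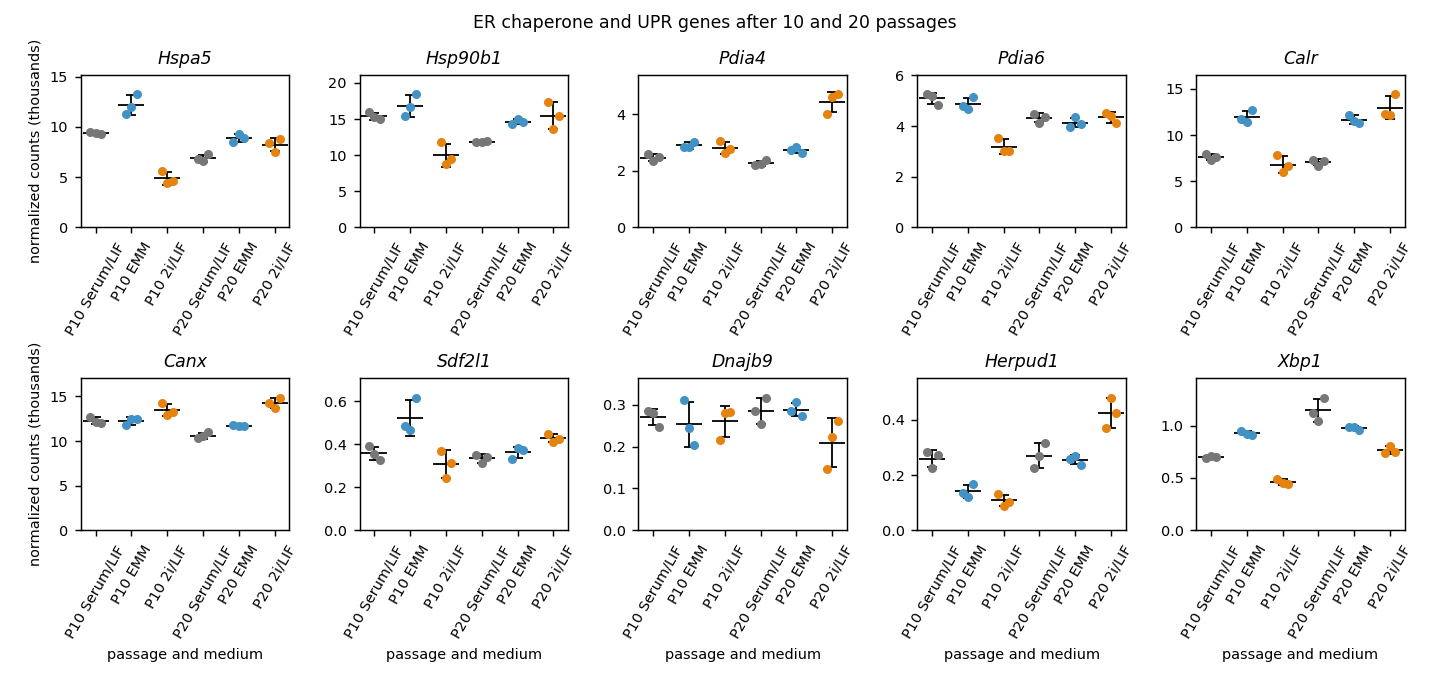
Normalized counts, on an axis in units of 1000 (vertical axis), of each gene after 10 and 20 passages in Serum/LIF (grey), EMM (blue) and 2i/LIF (orange). Points are the 3 libraries of a group and bars the mean ± SD; Calr stands above Serum/LIF in EMM at both passages, and Hspa5, Hsp90b1 and Pdia6 stand below it in 2i/LIF at P10 only.

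2i/LIF was compared with Serum/LIF at both passages. At P10, 5 of the 10 genes were lower than in Serum/LIF and none was higher, where 25.6% and 26.4% of tested genes were. At P20, 5 were higher and 1 was lower, where 21.0% and 23.2% were. The median log2 fold change of the 10 was -0.40 at P10 and 0.37 at P20, against 0.018 and -0.0061 over all tested genes. With library totals alone, the median of all genes at P20 moved by -0.12.

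At P10, Hspa5 held 5616, 4408 and 4573 normalized counts in 2i/LIF, about 1.93-fold below its controls (log2 fold change -0.95 ± 0.089, adjusted p = 5.0e-08). Herpud1 held 132, 90.0 and 104 (-1.27 ± 0.16, adjusted p = 2.5e-06), Pdia6 3533, 2999 and 3012 (-0.68 ± 0.073), Hsp90b1 11772, 8728 and 9416 (-0.62 ± 0.10) and Xbp1 494, 455 and 441 (-0.59 ± 0.079). None of these libraries reached the lowest P10 Serum/LIF library of its gene. All 5 calls stood in all 14 alternatives. Scaled within chromosomes, Canx was called higher at P10 too (0.24, adjusted p = 0.0026). Without P10 2i/LIF replicate 1, the library that stood apart, Hspa5 was at -1.06 and Herpud1 at -1.41, and Calr was called lower too (-0.28, adjusted p = 0.0073).

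At P20, Pdia4 held 4013, 4585 and 4691 normalized counts in 2i/LIF (log2 fold change 0.97 ± 0.074, adjusted p = 3.7e-09), about 1.96-fold above its controls. Calr held 12314, 12182 and 14408 (0.88 ± 0.090, adjusted p = 1.8e-07), Herpud1 371, 481 and 425 (0.67 ± 0.15, adjusted p = 0.00094) and Canx 14311, 13739 and 14866 (0.43 ± 0.061). All were above every P20 Serum/LIF library. Hsp90b1 held 17363, 13604 and 15477 (0.38 ± 0.10, adjusted p = 0.0035), a call that was lost without P20 2i/LIF replicate 1 or any P20 Serum/LIF replicate (adjusted p from 0.011 to 0.023). Library totals, at least 10 counts in every library and only the groups compared also lost it (adjusted p from 0.018 to 0.028). Xbp1 was lower, at 738, 810 and 752 (-0.57 ± 0.076, adjusted p = 4.3e-06). Hspa5 held 8374, 7489 and 8792, above every P20 Serum/LIF library, and was not called (0.26 ± 0.089, adjusted p = 0.020). Leaving out P20 2i/LIF replicate 2 brought Hspa5 past the threshold (0.32, adjusted p = 0.0091). Without P20 2i/LIF replicate 1, 4 genes were called higher and 1 lower, with Pdia4 at 1.04, Calr at 0.92 and Herpud1 at 0.75.

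Position on the chromosome moved with the P20 values. Over all tested genes, the median log2 fold change of 2i/LIF against Serum/LIF at P20 was 0.33 on chromosome 6, which carries Pdia4, and 0.45 on chromosome 8, which carries Calr and Herpud1, against -0.0061 over all chromosomes. When counts were scaled within each chromosome, Pdia4 stood at 0.68 (adjusted p = 5.0e-07) and Calr at 0.48 (adjusted p = 3.6e-05), while Herpud1 stood at 0.26 and was no longer called (adjusted p = 0.12). Hsp90b1 and Canx, on chromosomes 10 and 11, stood at 0.50 and 0.56. At P10 the medians of chromosomes 6 and 8 were 0.11 and 0.0083.

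The difference between the 2i/LIF effects at P20 and P10 was called higher for 6 of the 10 genes and lower for none, where 9.16% of tested genes were higher and 10.9% lower. It was 1.93 ± 0.22 for Herpud1 (adjusted p = 8.5e-06), 1.20 ± 0.13 for Hspa5 (adjusted p = 3.7e-06), 1.05 ± 0.13 for Calr, 1.01 ± 0.14 for Hsp90b1, 0.79 ± 0.10 for Pdia4 and 0.69 ± 0.10 for Pdia6. Both media moved in Hspa5, from 4866 to 8218 normalized counts in 2i/LIF and from 9385 to 6881 in Serum/LIF. Each of the 6 passed the test in all 20 alternatives, which include leaving out P20 2i/LIF replicate 1 and the scaling within chromosomes. Without P10 2i/LIF replicate 1, 8 of the 10 genes were called. Under that scaling the difference was 1.52 for Herpud1, 0.64 for Calr and 0.58 for Pdia4.

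**Figure D5:**
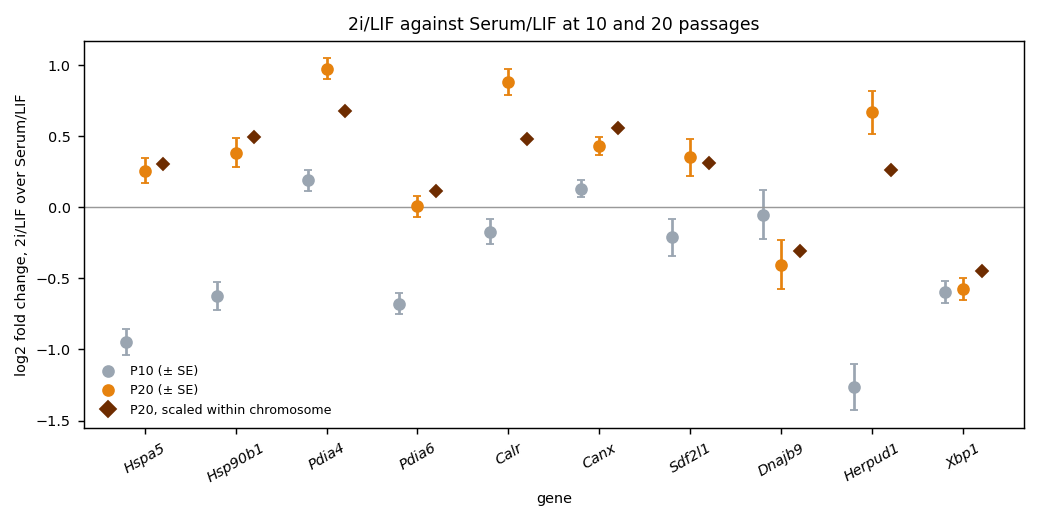
Log2 fold change of 2i/LIF over Serum/LIF (vertical axis) for each gene at P10 (grey, ± SE), at P20 (orange, ± SE) and at P20 after scaling within each chromosome (brown diamonds). Hspa5, Hsp90b1 and Herpud1 are below 0 at P10 and above it at P20; Herpud1 drops from 0.67 to 0.26 with the scaling.

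EMM and 2i/LIF were also set against each other. At P10, 6 of the 10 genes were higher in EMM and none lower, where 22.9% of tested genes were higher and 22.2% lower. Hspa5 was 2.50-fold higher (log2 fold change 1.32 ± 0.089, adjusted p = 8.7e-10) and Xbp1 2.01-fold (1.01 ± 0.079), and Calr, Hsp90b1, Sdf2l1 and Pdia6 were higher by 0.82, 0.75, 0.75 and 0.61 on the log2 scale. At P20 only Xbp1 was higher (0.35 ± 0.076), where 25.7% of tested genes were. Herpud1, Pdia4 and Canx were lower by then, with log2 fold changes of -0.74, -0.70 and -0.29, where 22.9% of tested genes were. Scaled within chromosomes, Herpud1 stood at -0.49 and Pdia4 at -0.39, and both were still called.

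In the ATF4 arm after passages in EMM, 1 of 8 genes was higher and 3 were lower at P10 (18.7% of tested genes each way), and none was higher and 5 were lower at P20 (12.5%). Atf4 fell by 0.91 at P20 on the log2 scale (adjusted p = 5.3e-09), from 3322 to 1770 normalized counts. Atf3, a stress-induced partner of ATF4, had the largest called fall of that list at P20, at 17.3 against 67.8 normalized counts (adjusted p = 0.00013). Of the 16 other folding factors, 7 were called at P10 (5 higher) and 2 at P20 (1 higher), and 37.4% and 26.0% of all tested genes were called in either direction. Of the 12 degradation genes, 5 were called at P10 (3 higher) and 5 at P20 (all higher). Ero1l, which recharges disulphide isomerases, was the folding factor that rose at P20 (1.05 ± 0.10, adjusted p = 5.5e-07), and Txndc5 was the 1 that fell. Derl3 had the largest called rise of the degradation genes (1.18 ± 0.22). Of the 6 sensors and proteases, 1 was higher at P10 (18.7%) and 4 at P20 (13.6%), and none was lower at either. Among them Atf6b, a relative of Atf6, rose by 0.42 ± 0.079 at P20. Of the 12 chaperones of the cytosol and mitochondria, 2 were higher and 1 lower at P10, and none higher and 3 lower at P20 (12.5%). Hspa8 fell by 0.56 at P20.

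The genes whose pattern was closest to that of Hspa5 were found from the log2 fold changes in 7 comparisons with Serum/LIF, 3 in the time course and 4 in the passages, over 9006 genes. The measure was the root mean square difference from Hspa5. The closest were Emc8 and Creld2 (both 0.23), Mfn2 (0.24), Azin1 (0.25) and Gtpbp6 (0.26). Of the other 9 genes described here, Hsp90b1 came first, in place 8 (0.27), then Pdia6 in place 119 (0.38), Sdf2l1 in place 313, Calr in place 408 and Canx in place 1087. Pdia4, Xbp1, Dnajb9 and Herpud1 stood at places 2047, 3317, 3368 and 6035. The 3 time-course comparisons share their control libraries, as do EMM and 2i/LIF at each passage, so this is a description only.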

How the data were processed

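The deposited time-course table holds gene counts made by the authors, and the passage table holds the estimated counts the authors deposited, of which 9.982% were not whole and were rounded. The submitters' processing notes name STAR, featureCounts and DESeq2 (time course), STAR, Salmon and DESeq2 (passages) and the build mm10. The study's methods name HTSeq and describe counts in introns and in exons, and which class the tables hold, the annotation and the strand setting are not given in the sources used here. Libraries came from rRNA-depleted RNA, 3 biological replicates a group. Groups were taken from the labels.

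Genes were filtered with filterByExpr, scaled by TMM and fitted with edgeR 4.0.16 (R 4.3.3, limma 3.58.1), all groups of an experiment in 1 model without covariates. In each of 13 comparisons, p-values were adjusted by the Benjamini-Hochberg method across every tested gene. Coordinates are those of GENCODE M21 (GRCm38), promoter windows those of RefSeq. Alternatives were DESeq2 size factors, library totals, other filters, the DESeq2 1.42.0 Wald test, fits of the compared groups only, scaling within chromosomes, a replicate block, other thresholds and each library left out in turn.

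The 10 genes, the lists and the tests were chosen with earlier results of these data known. Beside the 10 genes and Ern1, Eif2ak3, Atf6, Atf4 and Ddit3, the text names the largest called rise and fall of each pathway list at 24 h and at P20 in EMM, and the 5 genes most like Hspa5. In simulated counts for EMM 24 h against Serum/LIF (15818 genes), 99 of 100 genes changed by 1 on the log2 scale were recovered, with 1 false call. For P20 EMM against Serum/LIF (15467 genes) 97 of 100 were recovered, with 3 false calls. None of the 10 genes passed 1 in size in these comparisons. Smaller changes were not simulated, so these rates do not cover the changes called here.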

Additional observations from a re-analysis of the deposited data

Results flagged for a closer look

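Differences between time points and between passages are gathered here because a test of the difference itself passed. Between 9 and 24 h in EMM, the log2 fold change was -0.69 for Herpud1, -0.57 for Calr, -0.57 for Hspa5, -0.48 for Hsp90b1, -0.46 for Pdia6, -0.43 for Pdia4, -0.24 for Dnajb9 and -0.22 for Canx. Between 3 and 9 h, Calr rose by 0.23 and Hspa5 fell by 0.20. The Hspa5 step from 3 to 9 h was lost in 4 of 14 alternatives and the Dnajb9 step from 9 to 24 h in 9 of 14.

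The EMM effect, as the log2 fold change over Serum/LIF, differed between P20 and P10 by -0.64 for Xbp1, whose Serum/LIF mean was 698 normalized counts at P10 and 1145 at P20. The 2i/LIF effect differed between P20 and P10 by 1.93 for Herpud1, 1.20 for Hspa5, 1.05 for Calr, 1.01 for Hsp90b1, 0.79 for Pdia4 and 0.69 for Pdia6. All groups had 3 libraries, so Dixon's test for a single outlying library was not run.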

How the results depend on the processing

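Of 65 calls among the 10 genes over 13 comparisons, 53 stood in every alternative that kept the threshold of adjusted p. The calls lost most often were Pdia4 in P20 EMM (11 of 14 alternatives), Xbp1 at 9 h (9), Dnajb9 from 9 to 24 h (9), Hsp90b1 in P20 2i/LIF (7) and Hspa5 in P20 EMM (5). No call changed direction. Where a call was lost, the cause was not tested. P20 EMM against Serum/LIF kept 1 of its 3 calls in all of these, and P10 EMM against Serum/LIF kept 2 of its 5.

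When a log2 fold change over 1 in size was also asked for, 0 of the 10 genes passed at 3 h (4.22% of all tested genes), 9 h (5.55%) and 24 h (8.18%). None passed at 9 h against 3 h (1.75%) or 24 h against 9 h (0.573%). None passed in P10 EMM (17.1%), P20 EMM (9.63%), P20 2i/LIF (22.3%), P20 EMM against 2i/LIF (25.3%) or the EMM effect (8.40%). In P10 2i/LIF 1 passed (26.4%), in P10 EMM against 2i/LIF 2 (22.1%) and for the 2i/LIF effect 4 (9.32%). At an adjusted p under 0.05, P20 EMM had 5 calls and the EMM effect 2. The share of all tested genes at 0.05 was not counted. The EMM effect had 2 calls with DESeq2 size factors, no filter, at least 10 counts in every library, the DESeq2 Wald test and only the groups compared, and 9 h against 3 h had 1 with library totals. Leaving out 1 library gave 1 to 2 calls for 9 h against 3 h, 3 to 5 for P10 EMM, 1 to 2 for P20 EMM and 1 to 2 for the EMM effect.

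Uncalled log2 fold changes near 0 changed sign. With library totals, Sdf2l1 stood at -0.065 at 3 h, Canx at -0.0034 at 24 h, Dnajb9 at -0.072 in P20 EMM and Pdia6 at -0.11 in P20 2i/LIF. With no filter, Herpud1 stood at 0.0072 at 3 h, Dnajb9 at 0.0091 at 9 h, Hspa5 at 0.0015 at 24 h and Pdia6 at -0.0015 in P20 2i/LIF. In P20 EMM, Dnajb9 stood at -0.0026 with DESeq2 size factors, -0.028 with at least 10 counts and -0.0029 with the DESeq2 Wald test. In P20 2i/LIF, Pdia6 stood at -0.0069, -0.071 and -0.0076 in the same order, and at -0.0060 with only the groups compared. Scaled within chromosomes, Canx stood at 0.091 in P10 EMM. With 1 library left out, the ranges were -0.11 to 0.12 for Sdf2l1, -0.052 to 0.0077 for Dnajb9 and -0.053 to 0.035 for Herpud1 at 3 h, -0.053 to 0.045 for Dnajb9 at 9 h, and -0.059 to 0.016 for Hspa5 and -0.19 to 0.034 for Sdf2l1 at 24 h. They were -0.12 to 0.057 for Dnajb9 in P10 2i/LIF, -0.018 to 0.032 for Canx and -0.27 to 0.058 for Dnajb9 in P10 EMM, -0.025 to 0.049 for Pdia6 in P20 2i/LIF, and -0.059 to 0.098 for Dnajb9 and -0.20 to 0.045 for Herpud1 in P20 EMM.

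Replicate numbers were not taken to pair the samples, since correlations of same-numbered libraries ran from -0.134 to 0.207 in the time course and from -0.212 to 0.299 in the passages. Those of differently numbered libraries ran from -0.333 to 0.280 and from -0.245 to 0.198. Between P10 and P20 2i/LIF, all 3 same-numbered pairs were over 0.1 (0.299, 0.134 and 0.224). With the replicate block, 6, 7, 6, 2 and 9 of the 10 genes were called at 3 h, 9 h, 24 h, 9 h against 3 h and 24 h against 9 h. In the passages 5 were called in P10 EMM, 2 in P20 EMM, 5 in P10 2i/LIF, 6 in P20 2i/LIF, 6 in P10 and 4 in P20 EMM against 2i/LIF, 1 for the EMM effect and 6 for the 2i/LIF effect. With a block by the numbers in the sample descriptions, which differ from the titles for EMM, Hspa5 stood at 0.0076 and Sdf2l1 at 0.10 at 24 h.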
